A study of Mus musculus with 24 samples.

Results

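The p53 target genes described here are 34 genes: Trp53 itself, the genes that feed back on p53, and genes that p53 is known to switch on in mouse cells. They were found by matching their symbols to the Ensembl identifiers of the tables, each to 1 row, among 55385 Ensembl genes. All 34 passed the filter on low values in each of the 6 tables. Fas did so through the low-ΔΨm or the treated libraries alone in the sorted and MYC inhibitor tables, where it had to differ to be tested. In the etomoxir table Fas and Cd82 passed it through both etomoxir libraries and 1 water library. Cd82 likewise passed it with only 1 control library in the sorted and MYC inhibitor tables, where its change did not pass the threshold. By function, 6 belong to the p53 core and its feedback, 9 to cell cycle arrest and signalling, 11 to cell death, 4 to DNA repair and 4 to metabolism. In the GENCODE M21 annotation of GRCm38 Trp53 (ENSMUSG00000059552) lies at chr11:69580359-69591873 on the plus strand and Mdm2 (ENSMUSG00000020184) at chr10:117688875-117710758 on the minus strand. All 34 are protein-coding. Of these, 9 share exon bases with another gene, 8 with an antisense gene and 1 with a gene of the same strand, and since fragments were counted without strand the reads of such partners cannot be told apart.

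RNA-seq of naive mouse embryonic stem cells (ESCs) was deposited as 6 tables of FPKM (fragments per kilobase of gene, corrected for library size), with 24 libraries in 12 groups of 2. E14 cells grown in 2i/LIF, the medium that keeps ESCs naive, were stained with TMRM, a dye taken up according to mitochondrial membrane potential (ΔΨm), and sorted into the lowest and the highest 5%. The low-ΔΨm cells are the spontaneous quiescent ESCs (qESCs) of the study, and the high-ΔΨm cells are their comparison. Low-ΔΨm cells given 25 or 50 µM S-adenosylmethionine (SAM, the methyl donor) for 24 h formed another table, which holds no untreated library. E14 cells received 40 nM of a pool of 4 siRNAs against Mat2a, the enzyme that makes SAM, or of a control siRNA. Etomoxir, an inhibitor of fatty acid oxidation (FAOi), was given at 100 µM for 4 days, with water as its control. A MYC inhibitor (MYCi) was given at 64 µM for 3 days, with DMSO as its control. Eed-null lines (Eed -/-), which lack a core subunit of the Polycomb complex PRC2, were set against heterozygous Eed fl/- lines. The Eed lines came from blastocysts of a 129/S1 background carrying a floxed exon 7 and a Protamine Cre, which acts in the male germ line. They were kept on mitomycin-C-treated mouse embryonic fibroblast feeders in 2i/LIF with serum. Their line, feeders and medium thus differ from those of the E14 cells and cannot be told apart from each other. The labels do not say how the 2 replicates of a group were kept separate, so p-values measure only the spread between these libraries.

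p53 is a transcription factor that is made and destroyed continuously. Mdm2, itself a p53 target, is the ligase that marks p53 for destruction, and Mdm4 is its partner. When p53 is stabilised by DNA damage, ribosomal stress or other insults, it binds paired decamers near its targets and raises genes that stop the cell cycle, repair DNA, change metabolism or start apoptosis. Mouse ESCs hold abundant p53 and are known for a short G1 phase and for p53 activity that favours differentiation or death. Because p53 is controlled mostly as a protein, the mRNA of Trp53 need not follow the mRNA of its targets.

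Promoter windows from RefSeq (GRCm38.p6, 250 bases before to 50 after a transcript's start) were matched by symbol to 26 of the 34 members, which had 41 windows. The p53 decamer, the unit that is repeated in a p53 response element, was searched by its consensus. The decamer equals its own reverse complement, so that 1 scan read both strands, and no other motif was searched. It was present in 11 of 41 member windows (26.8%, in 10 members) and in 2745 of all 32851 windows (8.36%). The windows of Aen overlap and hold the same decamer, which is counted in each. Windows of a gene are not independent, and the share was not counted by gene over all genes. A pair of decamers at most 13 bases apart was present in 0 member windows and in 24 of all windows (0.0731%). Known p53 response elements often lie in introns, outside these windows, and a match is a description of letters, not of binding. The windows of Trp53 and its ligase Mdm2 are shown as the hub of the pathway, and those of Ccng1 and Gadd45a as the other members with a decamer and the largest changes, with the decamer in capitals. The Trp53 window is chr11:69580109-69580408 on the plus strand, with the decamer 75 bases before the start. The Mdm2 window is chr10:117710709-117711008 on the minus strand, 186 bases before. The Ccng1 window is chr11:40755237-40755536 on the minus strand, 185 bases before, and the Gadd45a window is chr6:67037358-67037657 on the minus strand, 40 bases before.
Trp53: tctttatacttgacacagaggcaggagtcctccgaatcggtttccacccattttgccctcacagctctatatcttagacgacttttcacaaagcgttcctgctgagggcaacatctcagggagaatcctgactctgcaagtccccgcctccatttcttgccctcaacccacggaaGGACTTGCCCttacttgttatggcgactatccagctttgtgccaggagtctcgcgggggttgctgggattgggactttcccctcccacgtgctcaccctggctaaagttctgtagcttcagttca
Mdm2: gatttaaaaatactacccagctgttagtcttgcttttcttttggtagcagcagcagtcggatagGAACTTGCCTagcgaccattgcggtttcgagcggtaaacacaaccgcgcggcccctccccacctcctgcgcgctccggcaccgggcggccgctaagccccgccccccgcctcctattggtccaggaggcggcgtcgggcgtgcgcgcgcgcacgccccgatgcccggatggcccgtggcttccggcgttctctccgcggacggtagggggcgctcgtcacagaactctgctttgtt
Ccng1: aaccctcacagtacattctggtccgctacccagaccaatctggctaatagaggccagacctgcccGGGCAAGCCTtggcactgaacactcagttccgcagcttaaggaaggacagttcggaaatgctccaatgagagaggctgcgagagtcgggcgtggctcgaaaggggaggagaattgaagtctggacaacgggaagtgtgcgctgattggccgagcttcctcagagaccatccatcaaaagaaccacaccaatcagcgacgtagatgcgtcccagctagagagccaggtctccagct
Gadd45a: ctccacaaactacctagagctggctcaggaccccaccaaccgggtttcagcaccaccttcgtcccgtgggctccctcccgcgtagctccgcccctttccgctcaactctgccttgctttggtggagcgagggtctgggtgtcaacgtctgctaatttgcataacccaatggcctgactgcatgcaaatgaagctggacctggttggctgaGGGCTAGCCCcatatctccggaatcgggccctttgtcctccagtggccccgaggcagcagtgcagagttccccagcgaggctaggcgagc

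The depth estimated from the steps between low FPKM values was 27.2 to 64.2 M fragments on genes in a library. The FPKM values were scaled by the authors over genes, NONCODE transcripts and repeat loci together, and most genes had lower FPKM in the treated group of the Mat2a, etomoxir and MYC inhibitor tables and at the higher SAM dose. Levels are therefore given as FPKM after dividing each library by its median ratio over the tested genes, 1 table at a time, and results on the FPKM values as deposited are called deposited scale. The scaling moved the median log2 fold change of all genes by -0.04 in sorted cells, 0.66 with Mat2a siRNA, 0.70 with etomoxir, 0.68 with the MYC inhibitor, -0.10 in Eed-null lines and 0.40 between SAM doses. Which scale is nearer to the RNA of a cell was not tested, and in bulk samples fewer cells of a type and less RNA per cell cannot be told apart. Differences were tested with limma on log2(FPKM + 0.1), with p adjusted by the Benjamini-Hochberg method over all genes of a table, and those under 0.05 passed. Log2 fold changes refer to log2(FPKM + 0.1), which shrinks those of weakly expressed genes. The targeted genes followed their labels: Mat2a was at 36.5 and 35.1 FPKM with control siRNA and 14.5 and 14.7 with Mat2a siRNA (log2 fold change -1.29, adjusted p = 0.00121). Eed was at 12.2 and 11.7 FPKM in heterozygous and 2.82 and 2.44 in null libraries (log2 fold change -2.14, adjusted p = 0.000582). Of 10 naive ESC markers, 6 fell and 1 rose with Mat2a siRNA (19.8% and 23.0% of all genes). With etomoxir 10 fell (31.2% of all genes) and with the MYC inhibitor 9 fell (28.4%). In low-ΔΨm cells 5 rose (19.4%), and in Eed-null lines 4 rose and 5 fell (25.3% and 22.5%).

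Most p53 target genes were higher in low-ΔΨm ESCs, with Mat2a siRNA and with both inhibitors, and most were lower in Eed-null lines. In low-ΔΨm cells 26 of 34 rose, 1 fell and 7 did not pass. The background was 19.4% higher and 17.0% lower among the 21086 genes tested. With Mat2a siRNA 21 rose, 5 fell and 8 did not pass (23.0% and 19.8% of 24938 genes). With etomoxir 27 rose, 6 fell and 1 did not pass (30.9% and 31.2% of 25421 genes). With the MYC inhibitor 22 rose, 5 fell and 7 did not pass (25.4% and 28.4% of 24335 genes). In Eed-null lines 4 rose, 19 fell and 11 did not pass (25.3% and 22.5% of 27015 genes). The median log2 fold changes of the members were 0.74, 0.71, 0.89, 0.55 and -0.41 in that order, beside -0.0071, 0.036, 0.048, 0.029 and 0.0069 for all genes. Without Fas and Cd82 where they passed the filter in this way, 25 rose in low-ΔΨm cells, 25 with etomoxir and 21 with the MYC inhibitor. On the deposited scale 23 members were higher and 0 lower in sorted cells (14.0% and 6.45% of all genes), 6 and 6 with Mat2a siRNA (13.1% and 36.8%), and 12 and 7 with etomoxir (13.9% and 51.3%). They numbered 5 and 13 with the MYC inhibitor (7.89% and 57.8%) and 3 and 12 in Eed-null lines (24.2% and 12.1%). The median log2 fold changes on that scale were 0.78, -0.036, 0.13, -0.17 and -0.29 for the members, beside 0.037, -0.63, -0.66, -0.65 and 0.11 for all genes. Rises that passed on both scales were those of Btg2, Gadd45a, Plk2, Perp, Pmaip1 and Fas with Mat2a siRNA and those of Btg2, Plk2, Perp, Trp53inp1 and Fas with the MYC inhibitor. With etomoxir they were those of Mdm2, Btg2, Gadd45a, Plk2, Plk3, Cd82, Perp, Pmaip1, Bbc3, Trp53inp1, Fas and Polk. Every other rise of a member in these 3 tables did not pass as a rise on the deposited scale, while each of the falls did. As most genes were lower on that scale, a fall that passes there adds little. With the MYC inhibitor Ppm1d and Ei24 passed there in the opposite direction, as falls (-0.58 and -0.48, adjusted p = 0.00908 and 0.0220 in limma). In sorted cells the calls of Ppm1d, Plk3, Bax and Aen were lost there, and in Eed-null lines those of Gadd45a, Plk3, Fbxw7, Bbc3, Bax, Aen, Polk and Sesn1. The small counts rested on single libraries. Lower members numbered 0 without either low-ΔΨm library (1 and 0 at an unadjusted p under 0.05 in limma), 0 without either control siRNA library (2 unadjusted in each case) and 2 without either etomoxir library. Higher members in Eed-null lines numbered 1 without heterozygous replicate 1 and 2 without heterozygous replicate 2. Calls lost without at least 1 library were those of Ppm1d, Plk3, Bax and Aen in low-ΔΨm cells and of Trp53, Ppm1d, Ccng1, Epha2, Aen, Ei24, Ddb2, Tigar and Pltp with Mat2a siRNA. They were those of Trp53, Bax, Aen, Sesn1 and Pltp with etomoxir, of Ppm1d, Pmaip1, Ei24 and Rrm2b with the MYC inhibitor, and of Btg2, Gadd45a, Plk3, Fbxw7, Pmaip1, Bbc3, Bax, Polk and Sesn1 in Eed-null lines. The adjusted p of these calls was then 0.0511 to 0.344.

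**Figure D1:**
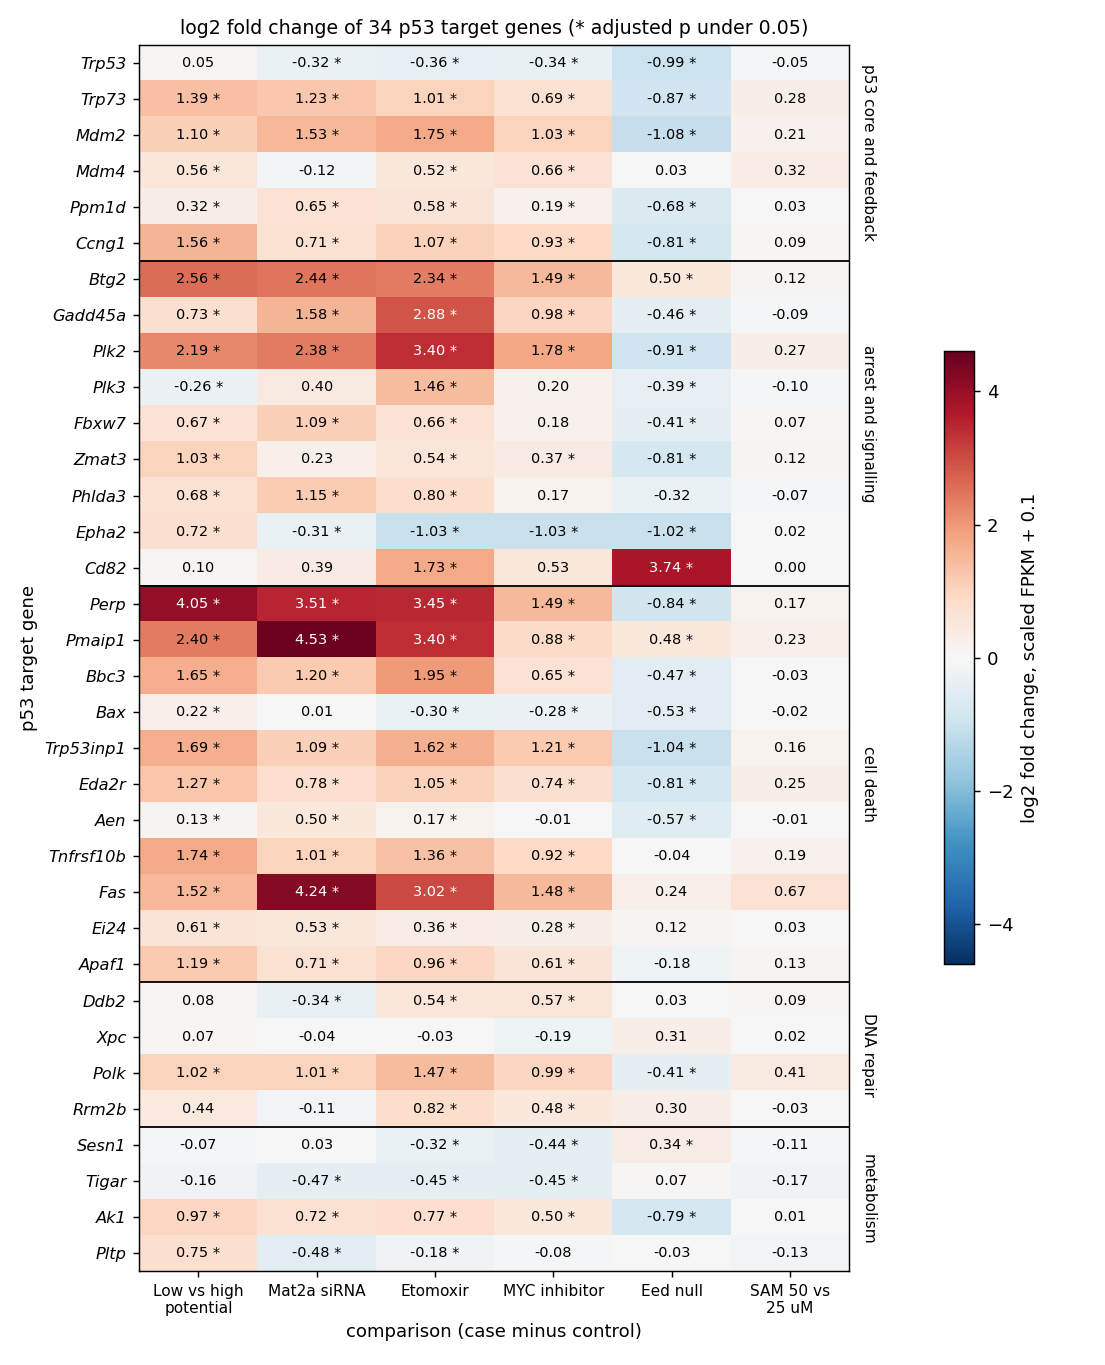
Log2 fold change of each of the 34 p53 target genes (rows, grouped by function) in the 6 comparisons (columns), on log2(scaled FPKM + 0.1), with an asterisk where the adjusted p was under 0.05. The cell death genes are the only group in which every member rose in low-ΔΨm cells (11 of 11, beside 19.4% of all genes). Of these, Fas could be tested there only because of its rise, and the calls of Bax and Aen were lost on the deposited scale. The Eed-null column is mostly negative (19 of 34 fell, beside 22.5% of all genes). On the deposited scale the Mat2a, etomoxir and MYC inhibitor columns would be lower by 0.66, 0.70 and 0.68 at the median gene.

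The marker lists of other cell states moved with some of these comparisons. The summed level of 10 genes of 2-cell-like (2C) cells went from 1.06 and 1.11 to 143 and 144 FPKM in low-ΔΨm cells and from 21.7 and 21.9 to 315 and 370.3 with Mat2a siRNA, and was 7.001 and 8.13 with water against 1.44 and 2.30 with etomoxir. Of these genes, 9 of 10 rose in each of the first pair of comparisons. With etomoxir 6 of 10 fell, and with the MYC inhibitor 4 of 10, beside the shares of all genes given above. In Eed-null lines all 10 rose, from a sum of 112 and 108 to 278 and 252 FPKM. Trophectoderm markers summed to 19.1 to 19.8 FPKM with water and 50.1 to 52.2 with etomoxir, and to 71.7 to 75.0 in heterozygous and 183 to 220.0 in Eed-null libraries, where 6 of 8 and 7 of 8 rose. With the MYC inhibitor 4 of these 8 rose and 1 fell. These counts too stand beside the shares of all genes given above. Primitive endoderm markers summed to at most 0.722 FPKM with water and 4.35 to 4.43 with etomoxir, and to 1.69 to 1.81 and 13.9 to 15.4 in the Eed lines. Fibroblast markers, 10 genes, summed to 8.10 to 9.39 FPKM in the libraries of the Eed lines, which were kept on feeders. In all other libraries they summed to 0.576 to 2.47 FPKM. The part of these cell states in the p53 target results was not tested.

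Among the core and feedback genes, the mRNA of Trp53 rose in none of the first 4 comparisons. Trp53 was at 48.9 and 51.1 FPKM in sorted high-ΔΨm and 52.3 and 51.3 in low-ΔΨm cells (log2 fold change 0.051, adjusted p = 0.367). It fell with Mat2a siRNA, from 79.6 and 80.6 to 65.9 and 62.5 FPKM (log2 fold change -0.32, SE 0.080, adjusted p = 0.0313). Etomoxir lowered it from 55.6 and 61.1 to 47.03 and 43.8 FPKM (log2 fold change -0.36, SE 0.076, adjusted p = 0.01404) and the MYC inhibitor from 65.7 and 62.8 to 49.4 and 51.7 FPKM (log2 fold change -0.34, SE 0.050, adjusted p = 0.00623). The treated libraries lay below the control libraries in all of these tables, on the deposited scale too. A fall there adds little, since most genes had lower deposited FPKM in the treated groups. The Mat2a call was lost without either control siRNA library (adjusted p = 0.231 and 0.255) and the etomoxir call without either etomoxir library (adjusted p = 0.058 and 0.133).

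Mdm2, the ligase that marks p53 for destruction, rose in each of these comparisons. It was at 9.78 and 10.4 FPKM in sorted high-ΔΨm and 21.2 and 22.4 in low-ΔΨm libraries (log2 fold change 1.10, SE 0.049, adjusted p = 0.00116). It was at 23.8 and 24.8 FPKM with control and 73.7 and 67.2 with Mat2a siRNA (log2 fold change 1.53, SE 0.085, adjusted p = 0.00121). Etomoxir took it from 21.2 and 21.5 to 73.8 and 70.6 FPKM (log2 fold change 1.75, SE 0.054, adjusted p = 0.000302), and the MYC inhibitor from 20.7 and 20.9 to 42.1 and 42.98 FPKM (log2 fold change 1.03, SE 0.038, adjusted p = 0.00112). In every one of these tables the groups did not overlap. Its log2 fold change as deposited was 1.15 in sorted cells and 0.96 with etomoxir, both past the threshold, and 0.78 and 0.26 with Mat2a siRNA and the MYC inhibitor, which did not pass.

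Ccng1, whose product cyclin G1 restrains p53 through Mdm2, rose from 11.9 and 12.2 to 35.6 and 35.7 FPKM in low-ΔΨm cells (log2 fold change 1.56, SE 0.032, adjusted p = 0.000327), more than Mdm2 did. With Mat2a siRNA it went from 46.8 and 49.3 to 89.5 and 69.6 FPKM (log2 fold change 0.71, SE 0.14, adjusted p = 0.0157), a call lost without control siRNA replicate 1 (adjusted p = 0.065) and a difference of -0.037 on the deposited scale. Etomoxir and the MYC inhibitor took it from 30.4 and 32.1 to 67.4 and 64.3 and from 32.7 and 30.9 to 58.7 and 62.5 FPKM (log2 fold change 1.07, adjusted p = 0.000502, and log2 fold change 0.93, adjusted p = 0.00117). Trp73, a p53 relative, is weakly expressed in these cells, at 0.938 and 0.945 FPKM in sorted high-ΔΨm and 2.43 and 2.86 in low-ΔΨm libraries (log2 fold change 1.39, SE 0.098, adjusted p = 0.00274). It rose with Mat2a siRNA, from 1.51 and 1.54 to 3.85 and 3.55 FPKM (log2 fold change 1.23, adjusted p = 0.00257, and 0.51 on the deposited scale). It also rose with etomoxir, from 0.639 and 0.691 to 1.37 and 1.52 FPKM (log2 fold change 1.01, adjusted p = 0.003196, and 0.29 on the deposited scale), and with the MYC inhibitor, from 1.03 and 0.964 to 1.71 and 1.62 FPKM (log2 fold change 0.69, adjusted p = 0.00564), where the deposited scale gave -0.023. Its exons share 5.06% of their bases with an antisense gene, Trp73os. Mdm4 and Ppm1d, the phosphatase that switches off p53 signalling, rose by 0.32 to 0.56 in low-ΔΨm cells, by 0.52 to 0.58 with etomoxir and by 0.19 to 0.66 with the MYC inhibitor (log2). With Mat2a siRNA Ppm1d rose by 0.65 while Mdm4 was at -0.12 and did not pass. Ppm1d had the opposite sign on the deposited scale in the Mat2a, etomoxir and MYC inhibitor tables, and Mdm4 in the etomoxir and MYC inhibitor tables.

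**Figure D2:**
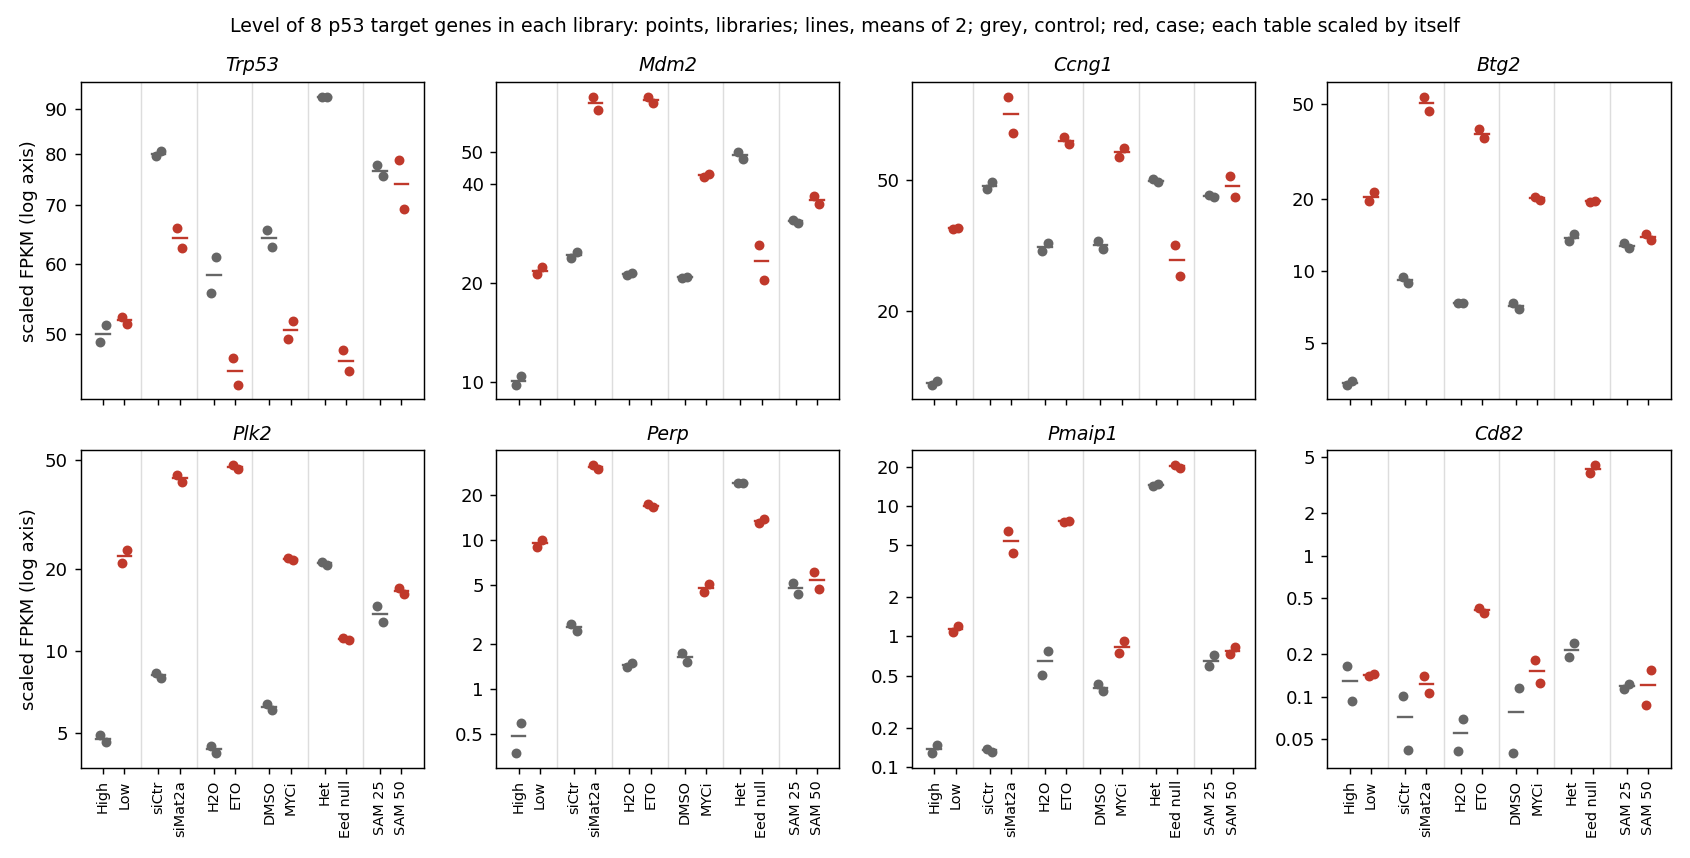
Scaled FPKM (log axis) of 8 p53 target genes in each of the 24 libraries, 2 points per group, by table. Trp53 stays within 43.8 to 92.9 FPKM throughout, while Perp spans 0.375 to 31.6 FPKM and Pmaip1 0.127 to 20.7 FPKM; tables were scaled separately, so heights are to be compared within a table.

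Of the 9 arrest and signalling genes, 7 rose and 1 fell in low-ΔΨm cells (19.4% and 17.0% of all genes), and 5 and 1 with Mat2a siRNA (23.0% and 19.8%). With etomoxir 8 rose and 1 fell (30.9% and 31.2%), and with the MYC inhibitor 4 and 1 (25.4% and 28.4%). The median log2 fold changes were 0.72, 1.09, 1.46 and 0.37 in that order. Btg2, an antiproliferative gene, went from 3.33 and 3.48 to 19.6 and 21.4 FPKM in low-ΔΨm cells (log2 fold change 2.56, SE 0.059, adjusted p = 0.0004303). It went from 9.41 and 8.93 to 53.8 and 47.1 FPKM with Mat2a siRNA (log2 fold change 2.44, adjusted p = 0.000739), from 7.35 and 7.32 to 39.2 and 35.98 with etomoxir (log2 fold change 2.34, adjusted p = 0.000285) and from 7.34 and 6.94 to 20.4 and 19.9 with the MYC inhibitor (log2 fold change 1.49, adjusted p = 0.00112). Plk2, a kinase of centriole duplication and the stress response, rose from 4.91 and 4.65 to 21.005 and 23.5 FPKM in low-ΔΨm cells (log2 fold change 2.19, SE 0.069, adjusted p = 0.000677), so that both genes were several times higher in each low-ΔΨm library than in any high-ΔΨm library. Plk2 went from 8.33 and 7.99 to 44.2 and 41.5 FPKM with Mat2a siRNA (log2 fold change 2.38, adjusted p = 0.000556), from 4.51 and 4.23 to 48.1 and 46.4 with etomoxir (log2 fold change 3.40, adjusted p = 0.000271) and from 6.39 and 6.09 to 21.9 and 21.5 with the MYC inhibitor (log2 fold change 1.78, adjusted p = 0.00112). Btg2 and Plk2 were past the threshold in the same direction on the deposited scale in all of these tables.

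Gadd45a, a stress sensor of the cell cycle and DNA repair, had log2 fold changes from 0.73 to 2.88 over the first 4 comparisons. It was at 1.31 and 1.37 FPKM with water and 10.7 and 10.3 with etomoxir (log2 fold change 2.88, SE 0.066, adjusted p = 0.000278). It was at 1.74 and 1.89 with control and 5.83 and 5.41 with Mat2a siRNA (log2 fold change 1.58, SE 0.11, adjusted p = 0.001597). In low-ΔΨm cells it went from 2.49 and 2.34 to 3.95 and 4.19 FPKM (log2 fold change 0.73, adjusted p = 0.00377) and with the MYC inhibitor from 1.48 and 1.67 to 3.095 and 3.31 (log2 fold change 0.98, adjusted p = 0.00214). Of its exon bases, 19.1% are shared with the antisense gene E230016M11Rik, whose reads cannot be told from its own without strand. Plk3, a related kinase, fell in low-ΔΨm cells, from 6.399 and 5.84 to 5.15 and 5.03 FPKM (log2 fold change -0.26, adjusted p = 0.0328), and rose with etomoxir, from 7.63 and 7.56 to 20.9 and 21.2 FPKM (log2 fold change 1.46, adjusted p = 0.000302). The fall of Plk3 did not pass on the deposited scale (-0.21), with ERCC scaling (adjusted p = 0.784) or without high-ΔΨm replicate 1 or either low-ΔΨm library (adjusted p = 0.0681, 0.132 and 0.169). Plk3 was at 0.40 with Mat2a siRNA and 0.20 with the MYC inhibitor, and neither passed. Zmat3, an RNA-binding p53 effector, rose from 7.02 and 7.11 to 14.2 and 14.9 FPKM in low-ΔΨm cells (log2 fold change 1.03, SE 0.040, adjusted p = 0.000951) and by 0.54 with etomoxir and 0.37 with the MYC inhibitor, where the deposited scale gave -0.25 and -0.40. With Mat2a siRNA it was at 0.23 and did not pass.

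Epha2, a receptor tyrosine kinase, moved one way in sorted cells and the other way in the next 3 comparisons. It rose in low-ΔΨm cells, from 22.01 and 20.1 to 34.9 and 34.4 FPKM (log2 fold change 0.72, SE 0.055, adjusted p = 0.00315). It fell with Mat2a siRNA, from 23.04 and 22.7 to 19.01 and 17.8 FPKM (log2 fold change -0.31, SE 0.075, adjusted p = 0.0276). It was at 16.6 and 16.5 FPKM with water and 8.26 and 7.85 with etomoxir (log2 fold change -1.03, SE 0.051, adjusted p = 0.000419). It was at 19.1 and 18.7 FPKM with DMSO and 8.94 and 9.43 with the MYC inhibitor (log2 fold change -1.03, SE 0.046, adjusted p = 0.00112). The direction held on the deposited scale, where a fall adds little in the last 3 comparisons because most genes were lower. The Mat2a call was lost without either control siRNA library (adjusted p = 0.215 and 0.192). Fbxw7, the ubiquitin ligase subunit that degrades MYC and cyclin E, and Phlda3, an inhibitor of AKT, rose in low-ΔΨm cells (0.67 and 0.68), with Mat2a siRNA (1.09 and 1.15) and with etomoxir (0.66 and 0.80). They were at 0.18 and 0.17 with the MYC inhibitor, which did not pass. The deposited value of Fbxw7 with etomoxir was -0.12. Cd82, a tetraspanin, was under 0.5 FPKM in all E14 libraries and was at 0.0412 and 0.0691 FPKM with water and 0.428 and 0.395 with etomoxir (log2 fold change 1.73, adjusted p = 0.00222). As it passed the filter through the etomoxir libraries, that value depends on the added 0.1. It was at 0.099, 0.39 and 0.53 in low-ΔΨm cells, with Mat2a siRNA and with the MYC inhibitor, which did not pass, and its changes with the inhibitors were not shown to differ (difference 1.19, adjusted p = 0.0668).

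The cell death genes, which number 11, mostly rose. In low-ΔΨm cells 11 of 11 rose (19.4% of all genes), with a median log2 fold change of 1.52. That median is the value of Fas, which could be tested there, and in the MYC inhibitor table, only because of its rise. The rises of Bax and Aen in low-ΔΨm cells did not pass on the deposited scale, with ERCC scaling or with a replicate block. With Mat2a siRNA 10 rose (23.0% of all genes, median 1.01). With etomoxir 10 rose and 1 fell (30.9% and 31.2%, median 1.36). With the MYC inhibitor 9 rose and 1 fell (25.4% and 28.4%, median 0.74). Perp, a p53 effector in the cell membrane, had the largest change of all members in low-ΔΨm cells. It was at 0.375 and 0.598 FPKM in sorted high-ΔΨm and 8.91 and 9.96 in low-ΔΨm libraries, a mean 19.4 times higher (log2 fold change 4.05, SE 0.21, adjusted p = 0.00149). It went from 2.75 and 2.46 to 31.6 and 29.8 FPKM with Mat2a siRNA (log2 fold change 3.51, SE 0.092, adjusted p = 0.000553). It went from 1.42 and 1.49 to 17.3 and 16.5 with etomoxir (log2 fold change 3.45, SE 0.063, adjusted p = 0.000272) and from 1.75 and 1.52 to 4.44 and 5.06 with the MYC inhibitor (log2 fold change 1.49, SE 0.11, adjusted p = 0.00141). Every treated library lay above every control library of its table.

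Pmaip1 (Noxa), which opposes the survival protein MCL1, was close to the filter in control cells. It was at 0.127 and 0.147 FPKM in sorted high-ΔΨm and 1.09 and 1.21 in low-ΔΨm libraries (log2 fold change 2.40, SE 0.12, adjusted p = 0.00145). It was at 0.137 and 0.1299 with control and 6.41 and 4.35 with Mat2a siRNA (log2 fold change 4.53, SE 0.22, adjusted p = 0.00109998), the largest change of a member on the scaled values, while on the deposited scale it was 3.94 and Perp in low-ΔΨm cells 4.09. Etomoxir took it from 0.509 and 0.777 to 7.504 and 7.74 FPKM (log2 fold change 3.40, SE 0.19, adjusted p = 0.000489) and the MYC inhibitor from 0.4303 and 0.379 to 0.743 and 0.921 (log2 fold change 0.88, SE 0.17, adjusted p = 0.0123). Fas, the death receptor, was lower still. It was at 0.00806 and 0.0391 FPKM in sorted high-ΔΨm and 0.216 and 0.2898 in low-ΔΨm libraries (log2 fold change 1.52, SE 0.22, adjusted p = 0.0122). It was at 0.128 and 0.206 with control and 5.65 and 4.22 with Mat2a siRNA (log2 fold change 4.24, SE 0.23, adjusted p = 0.00121). With etomoxir it went from 0.0773 and 0.0824 to 1.27 and 1.46 FPKM (log2 fold change 3.02, SE 0.17, adjusted p = 0.000493) and with the MYC inhibitor from 0.0678 and 0.0371 to 0.393 and 0.264 (log2 fold change 1.48, SE 0.24, adjusted p = 0.008396). The high-ΔΨm, water and DMSO libraries were all below 0.1 FPKM for Fas, where the log2 fold change depends on the added 0.1. Perp and Fas passed in the same direction on the deposited scale in all of these tables, and Pmaip1 in all but the MYC inhibitor table.

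Tnfrsf10b, the TRAIL receptor, rose from 1.29 and 1.33 to 4.505 and 4.77 FPKM in low-ΔΨm cells (log2 fold change 1.74, SE 0.058, adjusted p = 0.000749), and by 1.01, 1.36 and 0.92 (log2) with Mat2a siRNA, etomoxir and the MYC inhibitor. Trp53inp1, a stress protein that promotes p53 activity and autophagy, rose with the MYC inhibitor from 33.6 and 33.3 to 76.1 and 79.4 FPKM (log2 fold change 1.21, SE 0.044, adjusted p = 0.00112). It rose by 1.69, 1.09 and 1.62 (log2) in low-ΔΨm cells, with Mat2a siRNA and with etomoxir. Bbc3 (Puma), the BH3-only activator of BAX, rose by 1.65, 1.20, 1.95 and 0.65 in the same order with the MYC inhibitor last. Apaf1, the scaffold of the apoptosome, rose by 1.19, 0.71, 0.96 and 0.61, and Eda2r, a receptor of the TNF family, by 1.27, 0.78, 1.05 and 0.74. On the deposited scale Bbc3 and Eda2r were at -0.092 and -0.027 with the MYC inhibitor, and Apaf1 at -0.040 with Mat2a siRNA and -0.15 with the MYC inhibitor. Bax, the pore-forming effector itself, was abundant and changed little. It rose by 0.22 in low-ΔΨm cells (adjusted p = 0.0193) and was at 0.0066 with Mat2a siRNA (adjusted p = 0.9499). It fell with etomoxir, from 40.3 and 43.5 to 34.1 and 33.98 FPKM (log2 fold change -0.30, adjusted p = 0.0129), and with the MYC inhibitor, from 39.7 and 38.2 to 31.6 and 32.3 FPKM (log2 fold change -0.28, adjusted p = 0.00675). Of its exon bases, 12.2% are shared with Gm45808 on the same strand. Aen and Ei24 rose by 0.13 and 0.61 in low-ΔΨm cells, by 0.50 and 0.53 with Mat2a siRNA and by 0.17 and 0.36 with etomoxir. With the MYC inhibitor Ei24 rose by 0.28 and Aen was at -0.010 and did not pass. Both had negative deposited values in the Mat2a, etomoxir and MYC inhibitor tables.

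**Figure D3:**
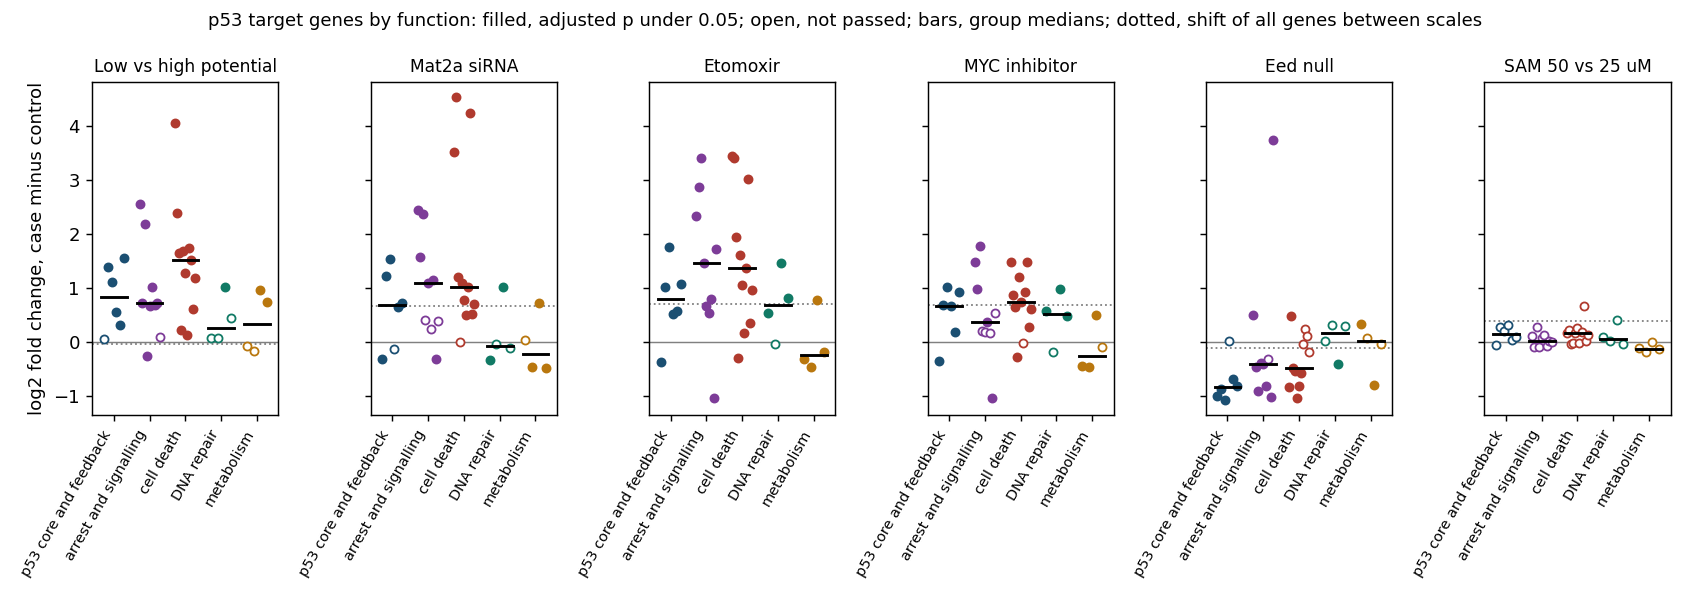
Log2 fold changes of the 34 members by function group in the 6 comparisons, each point a gene and each bar the group's median, on log2(scaled FPKM + 0.1). Cell death genes have the highest medians in low-ΔΨm cells (1.52, the value of Fas) and with the MYC inhibitor (0.74). Metabolism genes are near or below 0 with Mat2a siRNA (-0.22), etomoxir (-0.25) and the MYC inhibitor (-0.26). Dotted lines mark how far the scaling moved the median of all genes. A gene a little above a line can still be negative on the deposited scale, as Ccng1 was with Mat2a siRNA (0.71 scaled and -0.037 deposited).

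The 4 DNA repair genes moved less. Polk, the translesion polymerase kappa, was the member of this group that rose on the scaled values in each of the first 4 comparisons. It went from 1.51 and 1.56 to 3.14 and 3.32 FPKM in low-ΔΨm cells (log2 fold change 1.02, SE 0.059, adjusted p = 0.00186) and from 4.06 and 4.02 to 7.94 and 8.55 with Mat2a siRNA (log2 fold change 1.01, adjusted p = 0.00236). It went from 4.86 and 4.38 to 12.9 and 13.01 with etomoxir (log2 fold change 1.47, adjusted p = 0.000397) and from 4.47 and 4.32 to 9.11 and 8.53 with the MYC inhibitor (log2 fold change 0.99, adjusted p = 0.00114). The deposited values of Polk with Mat2a siRNA and the MYC inhibitor were 0.27 and 0.23 and did not pass. Ddb2, a damage sensor of nucleotide excision repair, fell with Mat2a siRNA, from 3.89 and 4.204 to 3.096 and 3.27 FPKM (log2 fold change -0.34, adjusted p = 0.04702). It rose with etomoxir, from 4.39 and 4.33 to 6.55 and 6.24 (log2 fold change 0.54, adjusted p = 0.00196), and with the MYC inhibitor, from 3.6998 and 4.11 to 5.896 and 5.803 (log2 fold change 0.57, adjusted p = 0.00372). The first of these calls was lost without either control siRNA library or without Mat2a siRNA replicate 1 (adjusted p = 0.178, 0.321 and 0.0764). The deposited values with the inhibitors were -0.24 and -0.18. Ddb2 shares 23.8% of its exon bases with the antisense gene Acp2. Rrm2b, the p53-inducible ribonucleotide reductase subunit, was at 0.778 and 0.898 FPKM with water and 1.65 and 1.45 with etomoxir (log2 fold change 0.82, adjusted p = 0.00707), and at 0.644 and 0.684 with DMSO and 0.941 and 0.994 with the MYC inhibitor (log2 fold change 0.48, adjusted p = 0.0264). The MYC inhibitor call of Rrm2b was lost without any 1 of the 4 libraries (adjusted p from 0.0761 to 0.112), and its deposited value was -0.20. In low-ΔΨm cells Ddb2 and Rrm2b were at 0.081 and 0.44, and with Mat2a siRNA Rrm2b was at -0.11, none of which passed. Xpc, the damage recognition factor, passed in none of the first 4 comparisons, with log2 fold changes of 0.068, -0.036, -0.031 and -0.19.

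Metabolic targets split. Ak1, adenylate kinase, rose from 14.9 and 16.3 to 29.6 and 31.7 FPKM in low-ΔΨm cells (log2 fold change 0.97, SE 0.064, adjusted p = 0.00241) and from 21.5 and 20.7 to 34.4 and 35.1 with Mat2a siRNA (log2 fold change 0.72, adjusted p = 0.00322). It went from 13.3 and 12.3 to 22.6 and 21.3 with etomoxir (log2 fold change 0.77, adjusted p = 0.00103) and from 16.5 and 15.96 to 22.6 and 23.3 with the MYC inhibitor (log2 fold change 0.50, adjusted p = 0.00177). The last 3 had deposited values of -0.034, -0.016 and -0.27, and none of them passed. Tigar, a phosphatase that lowers the glycolytic signal fructose-2,6-bisphosphate, was at 16.5 and 17.6 FPKM in sorted high-ΔΨm and 15.2 and 15.3 in low-ΔΨm libraries, which did not pass (log2 fold change -0.16, adjusted p = 0.0513). It fell with Mat2a siRNA, from 17.5 and 17.2 to 13.4 and 11.8 FPKM (log2 fold change -0.47, adjusted p = 0.0158). It fell with etomoxir, from 19.1 and 20.995 to 14.8 and 14.4 (log2 fold change -0.45, adjusted p = 0.00418), and with the MYC inhibitor, from 19.5 and 18.98 to 14.2 and 13.9 (log2 fold change -0.45, adjusted p = 0.00184), and both of these falls held without each library in turn. Sesn1, a sestrin that restrains mTORC1, fell with etomoxir, from 2.65 and 2.69 to 2.102 and 2.14 FPKM (log2 fold change -0.32, adjusted p = 0.0204), and with the MYC inhibitor, from 2.91 and 2.91 to 2.11 and 2.11 (log2 fold change -0.44, adjusted p = 0.00605). The etomoxir call of Sesn1 was lost without either etomoxir library (adjusted p = 0.163 and 0.128) and, with a replicate block, at an adjusted p of 0.0551. It was at -0.066 in low-ΔΨm cells and 0.032 with Mat2a siRNA, which did not pass. Pltp, the phospholipid transfer protein, rose in low-ΔΨm cells, from 9.14 and 9.09 to 14.98 and 15.8 FPKM (log2 fold change 0.75, SE 0.039, adjusted p = 0.00158). It fell with Mat2a siRNA, from 35.6 and 34.8 to 25.96 and 24.5 (log2 fold change -0.48, adjusted p = 0.00899), a call lost without either control siRNA library (adjusted p = 0.0843 and 0.0701). Its fall with etomoxir (log2 fold change -0.18, adjusted p = 0.0392) was lost without either etomoxir library (adjusted p = 0.312 and 0.344) and with a replicate block (adjusted p = 0.116), and with the MYC inhibitor it was at -0.082 and did not pass. It shares 19.3% of its exon bases with the antisense gene Ctsa.

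Side by side, 21 of the 34 members rose in low-ΔΨm cells, with Mat2a siRNA and with etomoxir, against 4.46% of the 19513 genes tested in all tables, and 18 also rose with the MYC inhibitor, against 3.41%. Fas is counted in both, though in the sorted and MYC inhibitor tables it could be tested only because of its rise. Of the 21, 14 fell in Eed-null lines, against 26.1% of the 871 genes that rose in the same 3 comparisons. Btg2, Plk2, Perp and Fas rose in the first 4 comparisons on both scales, against 0.630% of all genes, but Fas could be tested in the sorted and MYC inhibitor tables only because of its rise. Trp53, Epha2 and Tigar fell with Mat2a siRNA, etomoxir and the MYC inhibitor, on both scales, a pattern that 14.8% of all genes had on the scaled values. The share with it on both scales was not counted, and most genes were lower on the deposited scale. Trp53, Xpc, Sesn1 and Tigar rose in none of the first 3 comparisons. These comparisons share no libraries.

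The log2 fold change was greater with etomoxir in 17 of 34 members and smaller in 0 (21 and 0 at an unadjusted p under 0.05 in limma), against 8.46% and 10.3% of the 23717 genes tested. The doses and times differ, so these values stand side by side as 2 treatments and not as potencies. Pmaip1, Perp and Gadd45a differed most, by 2.52, 1.97 and 1.899 on the log2 scale. On the deposited scale 6 members had a greater change and 0 a smaller one (10 and 0 unadjusted), and with a replicate block 11 did. Set against the sorted cells, the signed log2 fold change in low-ΔΨm cells was greater than with the MYC inhibitor in 23 members and smaller in 2 (31.2% and 14.7% of all genes). It was greater than with etomoxir in 11 and smaller in 11 (34.7% and 18.8%), and greater than with Mat2a siRNA in 11 and smaller in 8 (23.1% and 14.3%). Here and below a greater change is a higher signed value and need not be a stronger rise. Trp53, Epha2, Bax, Sesn1, Tigar and Pltp, which fell with etomoxir, were among the 11 counted as greater than with etomoxir. Without etomoxir replicate 2 the first count against etomoxir was 7. The count of 8 against Mat2a siRNA was 3 to 5 without either high-ΔΨm, either low-ΔΨm or either control siRNA library, and that of 2 against the MYC inhibitor was 1 without either low-ΔΨm library, DMSO replicate 1 or MYC inhibitor replicate 1.

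**Figure D4:**
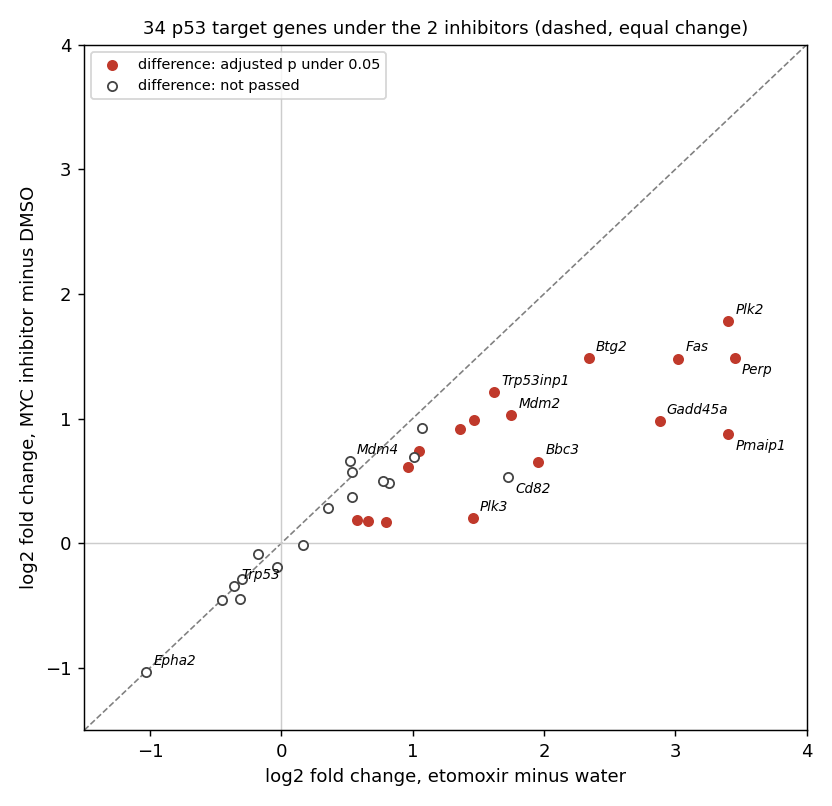
Log2 fold change with the MYC inhibitor (vertical) against etomoxir (horizontal) for the 34 members, on log2(scaled FPKM + 0.1), with the diagonal of equal change. Members that rise lie mostly below the diagonal, farthest for Pmaip1 (3.40 and 0.88), Perp (3.45 and 1.49) and Gadd45a (2.88 and 0.98), while Epha2 (-1.03 and -1.03) lies on it; the scaling moved all genes by 0.70 and 0.68.

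In Eed-null lines the core genes fell. Trp53 was at 92.9 and 92.9 FPKM in heterozygous and 47.9 and 45.4 in null libraries (log2 fold change -0.99, SE 0.063, adjusted p = 0.000934), its largest change on the scaled values. On the deposited scale it was -0.88 there, against -1.07 with Mat2a siRNA and -1.15 with etomoxir. Mdm2 went from 49.9 and 47.8 to 26.2 and 20.4 FPKM (log2 fold change -1.08, SE 0.13, adjusted p = 0.00397) and Trp73 from 1.56 and 1.58 to 0.792 and 0.835 (log2 fold change -0.87, SE 0.11, adjusted p = 0.00452). Ppm1d and Ccng1 fell by 0.68 and 0.81 on the log2 scale, and Mdm4 was at 0.029 and did not pass. So 5 of the 6 core and feedback genes fell (22.5% of all genes), with a median log2 fold change of -0.84, and all 5 fell on the deposited scale.

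Of the arrest genes 6 fell and 2 rose in Eed-null lines (22.5% and 25.3% of all genes). Cd82 rose from 0.191 and 0.241 to 3.84 and 4.39 FPKM (log2 fold change 3.74, SE 0.15, adjusted p = 0.000526), the largest change of a member there. Epha2 fell from 47.5 and 50.5 to 23.1 and 25.3 FPKM (log2 fold change -1.02, SE 0.076, adjusted p = 0.00125) and Plk2 from 21.2 and 20.7 to 11.2 and 10.98 (log2 fold change -0.91, SE 0.057, adjusted p = 0.000913). Btg2 rose by 0.50, and Gadd45a, Plk3, Fbxw7 and Zmat3 fell by 0.39 to 0.81 on the log2 scale, while Phlda3 was at -0.32 and did not pass. Of the death genes 6 fell, 1 rose and 4 did not pass, beside the same shares of all genes. Trp53inp1 went from 66.9 and 64.9 to 36.5 and 27.996 FPKM (log2 fold change -1.04, SE 0.14, adjusted p = 0.00496). Perp went from 23.8 and 24.03 to 12.96 and 13.7 (log2 fold change -0.84, SE 0.062, adjusted p = 0.00121) and Eda2r from 13.4 and 12.04 to 8.33 and 6.25 (log2 fold change -0.81, SE 0.15, adjusted p = 0.0137). Bbc3, Bax and Aen fell by 0.47 to 0.57, while Pmaip1 rose by 0.48, and Tnfrsf10b, Fas, Ei24 and Apaf1 lay between -0.18 and 0.24. Among repair and metabolism genes, Ak1 fell from 16.4 and 17.2 to 9.64 and 9.66 FPKM (log2 fold change -0.79, adjusted p = 0.00127) and Polk from 7.07 and 7.05 to 5.73 and 4.905 (log2 fold change -0.41, adjusted p = 0.0247). Sesn1 rose from 4.02 and 4.28 to 5.25 and 5.28 (log2 fold change 0.34, adjusted p = 0.0197). The calls of Polk and Sesn1 were lost without either heterozygous library (adjusted p = 0.101 and 0.0996 for Polk, 0.199 and 0.111 for Sesn1). The other repair and metabolism genes did not pass, with log2 fold changes of 0.029, 0.31, 0.30, 0.071 and -0.032 for Ddb2, Xpc, Rrm2b, Tigar and Pltp.

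For most members both heterozygous Eed libraries already lay above every control library of the sorted, Mat2a, etomoxir and MYC inhibitor tables. The share of all genes that did so was not counted. Trp53 was at 92.9 and 92.9 FPKM in heterozygous libraries against 48.9 to 80.6 in those controls. Mdm2 was at 49.9 and 47.8 against 9.78 to 24.8 FPKM, and Plk2 at 21.2 and 20.7 against 4.23 to 8.33. Perp was at 23.8 and 24.03 FPKM in heterozygous libraries, against 0.375 to 2.75 in the 8 control libraries of the sorted, Mat2a, etomoxir and MYC inhibitor tables. Pmaip1 was at 14.2 and 14.7 against 0.127 to 0.777 FPKM, Plk3 at 25.1 and 26.3 against 5.74 to 7.83, and Gadd45a at 7.08 and 7.55 against 1.31 to 2.49. Tigar was lower, at 7.15 and 7.33 against 16.5 to 20.995 FPKM. Other members lay within the range of those control libraries, such as Bax (41.2 and 42.9 against 38.2 to 47.5 FPKM) and Mdm4 (8.29 and 8.03 against 5.05 to 13.1). The fall of Perp in Eed-null lines, to 12.96 and 13.7 FPKM, left it above every E14 control library. Tables were scaled separately and no test was run across them.

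Between 25 and 50 µM SAM 0 of 34 members passed in either direction, and 0 of all 23911 genes did (0% in each direction). At an unadjusted p under 0.05 in limma 5 members were higher and 0 lower, against 960 higher and 489 lower genes of the table, and the smallest adjusted p of a member was 0.742. Trp53 was at 77.8 and 75.5 FPKM at 25 µM and 78.8 and 69.2 at 50 µM, Mdm2 at 31.03 and 30.5 and 36.8 and 34.7. Perp was at 5.13 and 4.31 and 6.07 and 4.66 FPKM. The libraries of the doses overlapped for Trp53 and Perp and did not for Mdm2. The median log2 fold change of the members was 0.052 on the scaled values and -0.36 on the deposited scale, on which 93 genes of the table were higher (0.389%) and 118 lower (0.493%) but no member was called. The members' log2 fold changes lay between -0.17 and 0.67, and the unadjusted 95% interval reached 0.25 to either side in the median member.

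Other known p53 targets outside the 34 were counted in the same way, 30 genes of which 27 to 29 were tested in a comparison. Of these, 20 rose and 1 fell in low-ΔΨm cells, 19 and 3 with Mat2a siRNA, 15 and 7 with etomoxir, 12 and 6 with the MYC inhibitor, and 9 and 12 in Eed-null lines, beside the shares of all genes given above. Cdkn1a, the p21 inhibitor of cyclin-dependent kinases and the best known p53 target, rose from 22.9 and 22.8 to 37.5 and 37.1 FPKM in low-ΔΨm cells (log2 fold change 0.71, SE 0.030, adjusted p = 0.00114). It went from 28.6 and 26.4 to 42.97 and 43.8 with Mat2a siRNA (log2 fold change 0.66, adjusted p = 0.004898, and -0.096 on the deposited scale). It was at 32.7 and 34.1 with water and 39.8 and 35.99 FPKM with etomoxir (log2 fold change 0.18, adjusted p = 0.0797), which did not pass. It was at 28.4 and 27.7 with DMSO and 28.6 and 29.95 with the MYC inhibitor (log2 fold change 0.061, adjusted p = 0.296), which did not pass either, and fell on the deposited scale (-0.71). In Eed-null lines it fell from 15.5 and 15.4 to 10.6 and 10.9 FPKM (log2 fold change -0.52, adjusted p = 0.00306). Among the other targets, Ptp4a3, a phosphatase, had the largest change in low-ΔΨm cells, from 0.499 and 0.516 to 4.08 and 4.56 FPKM (log2 fold change 2.86, adjusted p = 0.000573), followed by Ddit4, an mTORC1 inhibitor (1.91). With Mat2a siRNA Rprm and Ptp4a3 rose by 3.02 and 2.43. With etomoxir Thbs1 and Gdf15, both secreted proteins, rose by 4.15 and 2.51. With the MYC inhibitor Steap3 was at -2.18 and Cpt1c at 1.48, both past the threshold. In Eed-null lines Dram1 rose by 1.95 and Thbs1 was at -1.95, also past it.

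Of 20 regulators of p53, 19 were tested. Among them 7 rose and 2 fell in low-ΔΨm cells (19.4% and 17.0% of all genes), and 3 and 6 with Mat2a siRNA (23.0% and 19.8%). With etomoxir 7 rose and 9 fell (30.9% and 31.2%), and with the MYC inhibitor 6 and 6 (25.4% and 28.4%). In Eed-null lines 4 rose and 10 fell (25.3% and 22.5%). Chek1, the replication checkpoint kinase, fell in low-ΔΨm cells, from 8.93 and 9.09 to 6.26 and 6.17 FPKM (log2 fold change -0.53, adjusted p = 0.00245). It also fell with etomoxir, from 18.5 and 20.01 to 7.62 and 7.9996 (log2 fold change -1.29, adjusted p = 0.0004095), and with the MYC inhibitor, from 17.7 and 16.96 to 9.17 and 9.57 (log2 fold change -0.88, adjusted p = 0.00113). Ppp1r13b (ASPP1), which directs p53 to death genes, rose in low-ΔΨm cells (0.91), with Mat2a siRNA (0.75, and 0.0095 on the deposited scale) and in Eed-null lines (1.04), where Hipk2, a kinase that phosphorylates p53, rose by 1.21. Chek2, the kinase that answers double-strand breaks, fell with Mat2a siRNA (-0.75). Rpl11, a ribosomal protein that binds MDM2, fell with etomoxir (-1.07), and Ppp1r13l (iASPP), an inhibitor of p53, fell with the MYC inhibitor (-0.87).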

How the data were processed

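Per the labels and the study's methods, total RNA without ribosomal RNA was sequenced with ERCC spike-in RNA. The deposited values hold 92 ERCC rows for the sorted cells and 0 in each of the other tables, so ERCC scaling was possible for the sorted cells only. The authors trimmed reads with Trim Galore and cutadapt, checked them with FastQC, aligned them to mm10 with TopHat2 2.1.1, removed duplicates with SAMtools 1.9 and used featureCounts over Ensembl genes, NONCODE and repeat annotations (HOMER 4.10). That counting ignored strand and split a fragment among the places it matched. The deposited values are FPKM that the authors calculated with edgeR, 1 column per library. Each table holds 55385 Ensembl genes, of which 55144 were given a symbol from GENCODE M21. The authors' own lists of changed genes came from DESeq2 after RUVSeq, which FPKM does not include. Divided fragments give no whole counts, so no count test was run.

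Within each table, genes with at least 0.1 FPKM in at least 2 libraries were kept, libraries were divided by their median ratio over these genes, and log2(FPKM + 0.1) was tested with limma 3.58.1 in R 4.3.3 (intensity trend, the 4 libraries of the table, two-sided, Benjamini-Hochberg adjustment over all genes). Differences between comparisons were contrasts in 1 fit of 8 libraries. The procedure was tested on simulated data. Depth was estimated from the commonest low step of FPKM times exon length, taken as 1 fragment; over genes these products sum to 39.0% to 113% of what FPKM per gene fragment would give, so FPKM was not set by gene fragments alone. The members and the lists of other genes were chosen with earlier results of these data known. Named in each comparison were Trp53, Mdm2 and Cdkn1a, up to 3 members per function group past the threshold with the largest log2 fold change, and up to 2 genes of each other list; the rest of the members are given by range or value. Alternatives were the deposited scale, a pseudocount of 0.5, no filter, a filter of 1 FPKM, a replicate block, ERCC scaling of the sorted cells, and leaving out each library.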

Additional observations from a re-analysis of the deposited data

Results flagged for a closer look

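The changes of several p53 target genes differed between comparisons by a test of the difference itself (limma contrast over 8 libraries, p adjusted over all genes), and the 3 largest differences of each pair of comparisons are given, as the first log2 fold change minus the second. Fas rose by 1.52 in low-ΔΨm cells and 4.24 with Mat2a siRNA, a difference of -2.72 (SE 0.34, adjusted p = 0.00175). Fas was under 0.1 FPKM in both high-ΔΨm libraries and passed the filter there only through the low-ΔΨm ones, so its first value, and with it the difference, depends on the added 0.1. Pmaip1 rose by 2.40 and 4.53 in the same tables, a difference of -2.13 (SE 0.26, adjusted p = 0.00172). Pltp was at 0.75 and -0.48, a difference of 1.22 (SE 0.076, adjusted p = 0.000203). The differences lay in both directions.

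Against etomoxir, Gadd45a rose by 0.73 in low-ΔΨm cells and 2.88 with the inhibitor, a difference of -2.15 (SE 0.085, adjusted p = 2.35e-05). Epha2 was at 0.72 and -1.03, a difference of 1.75 (SE 0.075, adjusted p = 2.86e-05), and Plk3 at -0.26 and 1.46, a difference of -1.72 (SE 0.072, adjusted p = 2.69e-05). Epha2 and Plk3 had opposite signs in the sorted cells and with etomoxir, but the fall of Plk3 in sorted cells (adjusted p = 0.0328) did not pass on the deposited scale, with ERCC scaling or without either low-ΔΨm library.

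Against the MYC inhibitor, Perp rose by 4.05 in low-ΔΨm cells and 1.49 with the inhibitor, a difference of 2.56 (SE 0.26, adjusted p = 0.000642). Epha2 was at 0.72 and -1.03, a difference of 1.75 (SE 0.073, adjusted p = 4.64e-05), and Pmaip1 at 2.40 and 0.88, a difference of 1.51 (SE 0.20, adjusted p = 0.00152). Between the inhibitors, Pmaip1 rose by 3.40 with etomoxir and 0.88 with the MYC inhibitor, a difference of 2.52 (SE 0.27, adjusted p = 0.00308), Perp by 3.45 and 1.49, a difference of 1.97 (SE 0.13, adjusted p = 0.000934), and Gadd45a by 2.88 and 0.98, a difference of 1.899 (SE 0.11, adjusted p = 0.000842). Groups of 2 libraries are too small for a search for libraries that stand apart.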

How the results depend on the processing

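The cause was not tested for any of the following changes. On the deposited scale, the members lower in low-ΔΨm cells numbered 0 (0 unadjusted in limma). With Mat2a siRNA 6 were higher and the median log2 fold change was -0.036, with etomoxir 12 and 0.13, with the MYC inhibitor 5 higher, 13 lower and -0.17, in Eed-null lines 12 lower and -0.29, and between SAM doses the median was -0.36. Against Mat2a siRNA 18 members then had a greater and 2 a smaller change in low-ΔΨm cells, against etomoxir 22 and 4, against the MYC inhibitor 0 a smaller one (0 unadjusted), and 6 a greater change with etomoxir than with the MYC inhibitor. Genes turned in sign there: Ccng1 (-0.037), Ak1 (-0.034) and Cdkn1a (-0.096) with Mat2a siRNA, Ddb2 (-0.24), Ak1 (-0.016) and Cdkn1a (-0.61) with etomoxir, Trp73 (-0.023), Ddb2 (-0.18), Rrm2b (-0.20), Ak1 (-0.27) and Cdkn1a (-0.71) with the MYC inhibitor, and Mdm2 (-0.22) and Cdkn1a (-0.40) between SAM doses. With a filter of 1 FPKM, which leaves fewer genes and members, 2 members were lower in low-ΔΨm cells, 2 with Mat2a siRNA and 2 with etomoxir, the medians were 0.90, 1.02, 0.71 and -0.32 with Mat2a siRNA, etomoxir, the MYC inhibitor and in Eed-null lines, and 6 members had a greater change in low-ΔΨm cells than with etomoxir. With a pseudocount of 0.5 the etomoxir median was 0.75. Without a filter it was 0.81, 5 members had a smaller change in low-ΔΨm cells than with Mat2a siRNA, and Cdkn1a was at -0.0065 with the MYC inhibitor. ERCC scaling gave 0 lower members in low-ΔΨm cells (0 unadjusted) and a median of 0.83.

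Leaving out 1 library at a time, lower members ranged from 0 to 1 in low-ΔΨm cells, 0 to 6 with Mat2a siRNA and 2 to 6 with etomoxir, and higher ones from 1 to 6 in Eed-null lines, while the etomoxir median ranged from 0.84 to 0.97. Members with a smaller change in low-ΔΨm cells ranged from 3 to 9 against Mat2a siRNA and 1 to 3 against the MYC inhibitor, and those with a greater one from 7 to 12 against etomoxir. Between SAM doses Cdkn1a ranged from -0.065 without 25 µM replicate 2 to 0.14 without 25 µM replicate 1, and Trp53 from -0.14 without 50 µM replicate 1 to 0.039 without 50 µM replicate 2. Of the values of single genes and differences under these omissions, 467 kept direction and side of the threshold and 23 kept direction only. Replicate numbers are shared by the groups, but 2 pairs do not show pairing: same-numbered libraries had correlated deviations of -0.0067, -0.035, -0.090, 0.015, 0.065 and 0.24 in the 6 tables. With the replicate number as a block, 2 members were lower with Mat2a siRNA and 11 had a greater change with etomoxir than with the MYC inhibitor, and the other counts and medians stayed within 1.5 times or the spread between replicates. With 2 libraries a group and FPKM alone, changes of weak genes such as Fas and Cd82 are the least certain.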
